A study of Danio rerio with 9 samples.

Results

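The genes described here are the midkine and Id genes of zebrafish: *mdka*, *mdkb*, *id1*, *id2a*, *id2b*, *id3* and *id4*. They were chosen by name, and each of the 7 matched 1 of the 23707 gene IDs in the count table. The names table lists both midkine IDs under the symbol MDK, so ENSDARG00000020708 and ENSDARG00000036036 are given by ID, and which is *mdka* and which *mdkb* cannot be told from it. *id2a* was matched through the symbol ID2. RNAseq was carried out on GFP+ Müller glia (MG) that had been sorted from retinas of adult *gfap:GFP* zebrafish of both sexes. The 9 libraries formed 3 groups of 3, namely MG from *mych*-mut retinas at 2 days post injury (2 dpi), MG from Wt retinas at 2 dpi, and MG from Wt retinas without injury. The *gfap:GFP* transgene was present in all 3 groups. Its GFP is also seen in the progenitors that arise from MG after injury, so a sorted pool can hold both. Retinas were injured with needle pokes, the *mych* allele is a germline frameshift, and retinas were pooled before sorting. There was no uninjured *mych*-mut group, so a difference between genotypes that was there before the injury cannot be told apart from one in the response to it.

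Midkine is a secreted growth factor that binds heparin and has pleiotrophin as its closest relative. It signals through receptors that include the receptor phosphatase Ptprz1 and the receptor tyrosine kinase Alk. In the zebrafish retina, Mdka is known for its role in the progression of MG through the cell cycle after injury, which has been linked to Alk, to Id2a and to the retinoblastoma relative Rbl2. Id proteins have a helix-loop-helix domain but lack the basic region that binds DNA. They pair with E proteins and so keep these from pairing with neurogenic bHLH factors such as Ascl1a, Id2 also binds retinoblastoma proteins, and Id genes are well-known targets of BMP signalling through Smads.

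Library totals ranged from 46835977 to 77133615 counts, and levels are given as CPM, which are counts scaled to a common library size (TMM). Each comparison was tested with edgeR's quasi-likelihood test over 20484 genes. To be called, a gene needed an adjusted p no higher than 0.05 together with a log2 fold change beyond 0.5 in either direction. Nothing in the labels says that the libraries of a group came from separate fish, so the p-values measure the spread between these libraries. Each of the 10 matched MG marker IDs was detected in at least 1 library, and their summed level was 6223 to 15470 CPM in the *mych*-mut libraries, 8206 to 11810 CPM in the Wt libraries at 2 dpi and 6970 to 13240 CPM in the uninjured ones. Single markers moved under these sums: with injury in Wt MG 3 were called higher and 1 lower, where 42.1% of all genes tested were called. FABP7 (ENSDARG00000007697) rose 16.4-fold, GFAP 3.58-fold and GLUL (ENSDARG00000100003) 3.08-fold, and SLC1A2 (ENSDARG00000052138) fell 3.69-fold. Markers of neurons were also present, and more so without injury. The summed level of 15 inner retinal neuron marker IDs was 2489 to 4972 CPM in the *mych*-mut libraries, 1363 to 3183 CPM in the Wt libraries at 2 dpi and 7134 to 8008 CPM in the uninjured ones. For 13 rod marker IDs it was 1282 to 2849 CPM in the *mych*-mut libraries, 1046 to 3242 CPM in the Wt libraries at 2 dpi and 14050 to 27720 CPM in the uninjured ones. The sums were largest for 8 cone marker IDs. They were 13710 to 18610 CPM in the *mych*-mut libraries, 9463 to 20040 CPM in the Wt libraries at 2 dpi and 36960 to 57780 CPM in the uninjured ones. In such sorted pools, fewer cells of a type and less RNA per cell cannot be told apart.

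The first comparison asked how injury changed these genes in Wt MG. *id1* rose and *id2b* and *id4* fell, while neither midkine gene, *id2a* nor *id3* was called. Thus 3 of the 7 genes were called, 1 higher and 2 lower, where 42.1% of all genes tested were called (22.3% higher and 19.8% lower). The median log2 fold change was -0.15 over the 7 genes and -0.02 over all genes tested. The libraries of both groups did not overlap for *id1*, *id2b*, *id4* and MDK ENSDARG00000020708, against 56.6% of all genes.

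**Figure D1:**
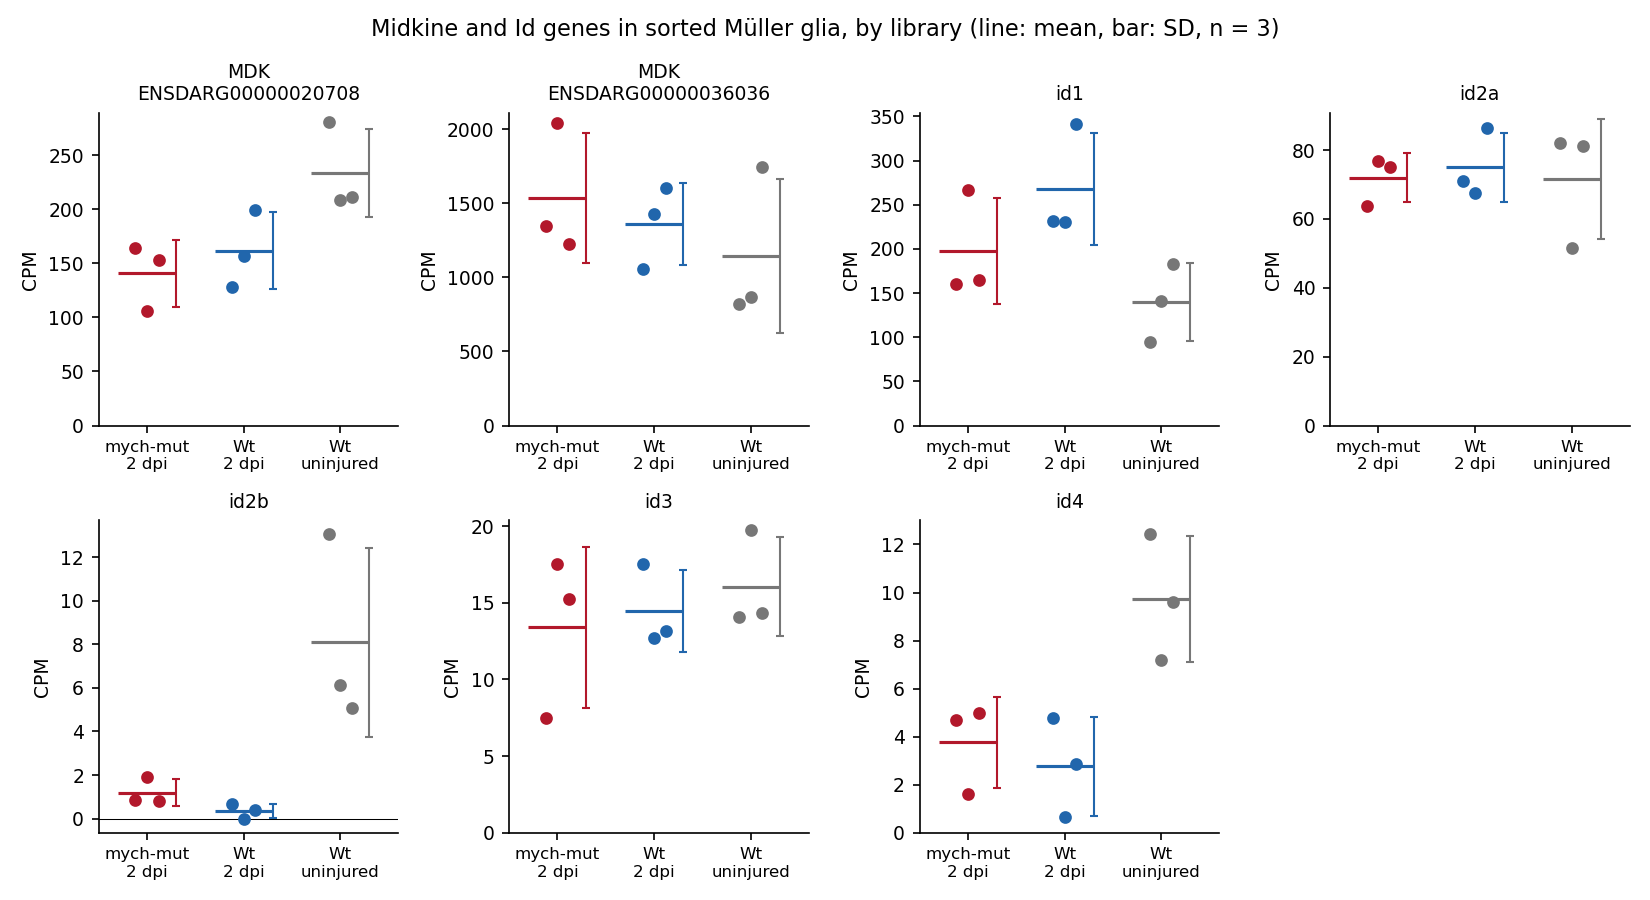
Level of each gene in CPM (vertical axis, from 0) in the 3 libraries of *mych*-mut MG at 2 dpi (red), Wt MG at 2 dpi (blue) and Wt uninjured MG (grey), with the mean as a line and the SD as a bar. *id2b* and *id4* are highest in the uninjured libraries, *id1* is highest on average in Wt MG at 2 dpi (267.8 CPM), and *id2a* averages 72.0, 74.9 and 71.5 CPM in these groups.

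The ligands were described first. MDK ENSDARG00000036036 had 1056, 1429 and 1600 CPM in Wt MG at 2 dpi, against 821.8, 870.6 and 1746 CPM in Wt uninjured MG. One uninjured library lay above every injured one, so the groups overlapped. The log2 fold change was 0.25 (edgeR adjusted p 0.583, SE 0.32), and its 95% interval ran from -0.45 to 0.95. MDK ENSDARG00000020708 had 128.4, 157.1 and 199.7 CPM in Wt MG at 2 dpi, against 280.4, 208.9 and 211.4 CPM in Wt uninjured MG. Every injured library was lower than every uninjured one. The log2 fold change was -0.53 (SE 0.23, interval -1.03 to -0.03) with an edgeR adjusted p of 0.086, which missed the threshold, whereas without Wt 2 dpi replicate 3 it was -0.71 with an adjusted p of 0.0454.

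*id1* had 231.4, 230.5 and 341.5 CPM in Wt MG at 2 dpi, against 94.7, 141.4 and 183.4 CPM in Wt uninjured MG. All 3 injured libraries were above all uninjured ones. *id1* rose by 0.94 on the log2 scale (SE 0.29, interval 0.31 to 1.56, edgeR adjusted p 0.0194). The call rested on single libraries: without Wt 2 dpi replicate 3 the log2 fold change was 0.72 (adjusted p 0.0862), and without Wt uninjured replicate 1 it was 0.75 (adjusted p 0.0644). Of the counts that fell on the 5 Id genes, *id1* held 71.1 to 76.9% in Wt MG at 2 dpi and 43.8 to 62.6% in Wt uninjured MG.

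The *id2* paralogs differed. *id2a* had 70.87, 67.51 and 86.42 CPM in Wt MG at 2 dpi, against 81.89, 51.45 and 81.17 CPM in Wt uninjured MG. The groups overlapped, the log2 fold change was 0.07 (edgeR adjusted p 0.832, SE 0.21), and the interval of -0.39 to 0.52 leaves out a change of more than that size in either direction. *id2b* was counted far less. It had 42, 0 and 25 counts in Wt MG at 2 dpi (0.66, 0 and 0.39 CPM), against 707, 258 and 319 counts in Wt uninjured MG (13.1, 6.14 and 5.09 CPM). A count of 0 in the second injured library allows up to 3 counts, or 0.0381 CPM, for counting error only. *id2b* fell by 4.54 on the log2 scale (SE 1.12, interval -6.99 to -2.09, edgeR adjusted p 0.0066), a 23.2-fold lower level. With any single library left out, the value stayed between -5.39 and -3.95 and the adjusted p at or below 0.0325.

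*id3* had 17.51, 12.68 and 13.18 CPM in Wt MG at 2 dpi, against 14.08, 19.77 and 14.33 CPM in Wt uninjured MG. The groups overlapped, and the log2 fold change of -0.15 (SE 0.32, interval -0.86 to 0.55, edgeR adjusted p 0.751) was within the spread of the replicates. *id4* had 4.78, 0.66 and 2.86 CPM in Wt MG at 2 dpi, against 12.42, 7.18 and 9.59 CPM in Wt uninjured MG. No injured library reached an uninjured one. *id4* fell by 1.81 on the log2 scale, or 3.52-fold (SE 0.65, interval -3.22 to -0.41, edgeR adjusted p 0.0395). That call was lost when *mych*-mut replicate 1, Wt 2 dpi replicate 2 or 3, or Wt uninjured replicate 1 or 3 was left out (log2 fold change -1.84 to -1.35, adjusted p 0.0546 to 0.114), and also with scaling by library size only (-1.76, adjusted p 0.0529).

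Neuron markers were lower with injury, as *id2b* and *id4* were. In Wt MG at 2 dpi against Wt uninjured MG, all 15 inner retinal neuron marker IDs had a negative log2 fold change and 13 fell, with a median of -1.86. Of 12 rod marker IDs tested, 10 fell (median -3.23), and all 8 cone marker IDs fell (median -1.88). Within *mych*-mut MG at 2 dpi the summed inner neuron markers were 4048, 2489 and 4972 CPM in replicates 1, 2 and 3, an order that *id4* (4.68, 1.60 and 4.99 CPM) followed and *id2b* (0.87, 1.93 and 0.79 CPM) reversed. Within Wt MG at 2 dpi they were 3183, 1363 and 2058 CPM, and both *id2b* and *id4* had the same order over these libraries. Within Wt uninjured MG they were 8008, 7179 and 7134 CPM. *id2b* (13.1, 6.14 and 5.09 CPM) followed that order and *id4* (12.42, 7.18 and 9.59 CPM) did not. The sums of replicates 2 and 3 were nearly equal, however. As the mean log2 CPM of the same markers, these libraries had 7.5, 7.33 and 7.58, an order that neither gene followed. *id1* was highest (266.3 CPM) in the *mych*-mut library with the least neuron markers. In Wt MG at 2 dpi the library with the least, replicate 2, had 230.5 CPM of *id1*, nearly equal to the 231.4 CPM of replicate 1. There *id1* was highest in replicate 3 (341.5 CPM). In a fit with the mean log2 CPM of the inner neuron markers as a covariate, chosen after seeing the data, the log2 fold change with injury was 0.27 for *id1* (edgeR adjusted p 0.947, SE 0.69), -2.84 for *id2b* (SE 2.74, adjusted p 0.785) and 2.22 for *id4* (SE 1.14, adjusted p 0.475). This covariate had no overlap between injured and uninjured libraries, and with it 1.94% of all genes were called in place of 42.1%. The fit therefore cannot tell injury and neuron markers apart. Orders over 3 libraries are given as description only, and the part of neurons in the values of these genes was not tested.

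**Figure D2:**
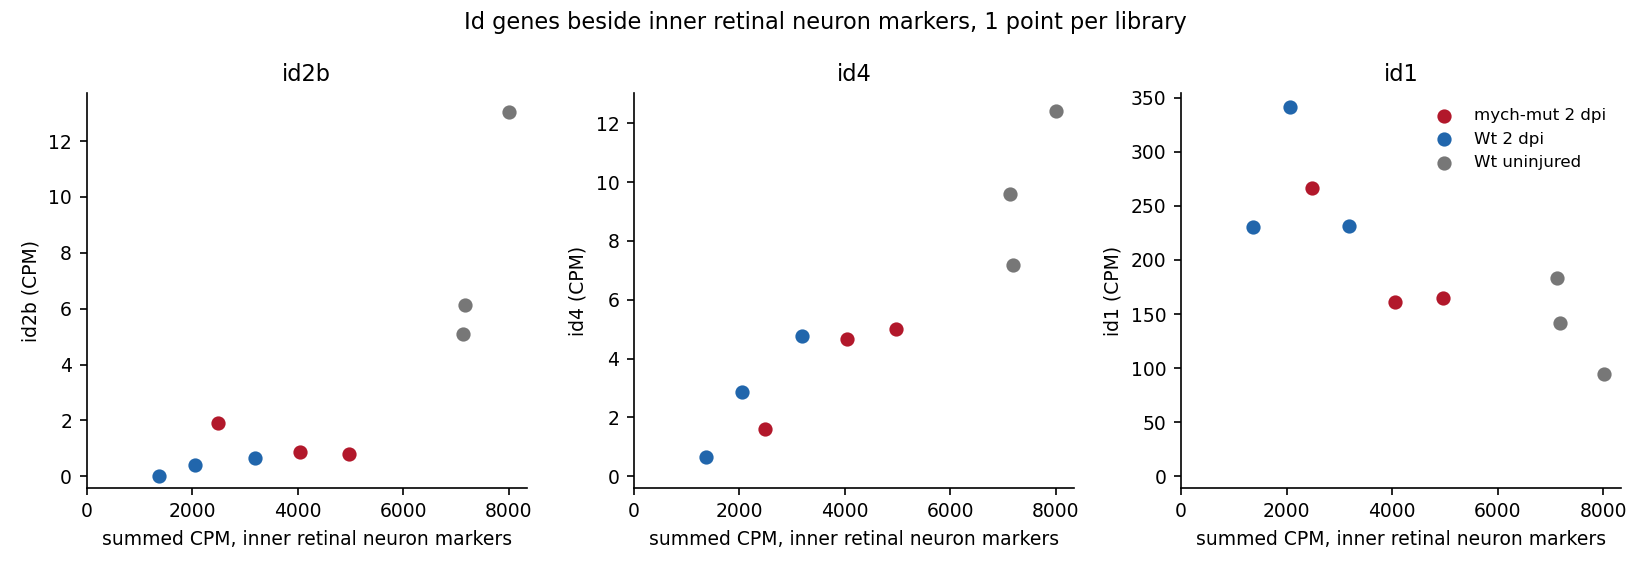
Level of *id2b*, *id4* and *id1* in CPM (vertical axes) against the summed CPM of the inner retinal neuron markers (horizontal axes), 1 point per library, for *mych*-mut MG at 2 dpi (red), Wt MG at 2 dpi (blue) and Wt uninjured MG (grey). The 3 uninjured libraries stand apart at 7134 to 8008 CPM of neuron markers, where *id2b* and *id4* are highest and *id1* ranges from 94.7 to 183.4 CPM.

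The second comparison asked whether the genotype changed these genes in the injured retina. None of the 7 genes was called between *mych*-mut and Wt MG at 2 dpi, where 1.69% of all genes tested were called (0.366% higher and 1.33% lower). At an unadjusted p under 0.05 edgeR gave 0 of 7, and DESeq2, which called 7.6% of all genes, also called 0 of 7. The median log2 fold change was -0.06 over the 7 genes and 0.03 over all genes tested.

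**Figure D3:**
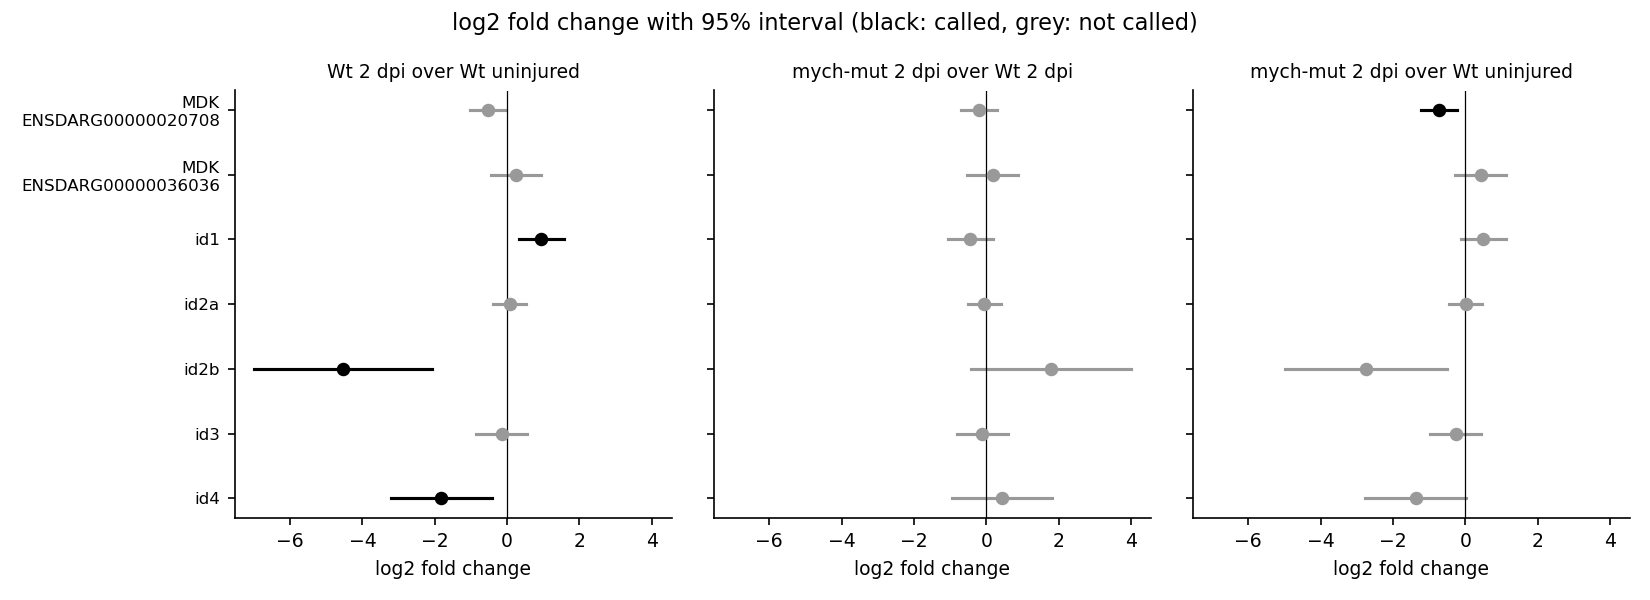
log2 fold change (horizontal axis) with its 95% interval for each gene in the 3 comparisons, black where called and grey where not. Only *id1*, *id2b* and *id4* are black in the comparison of Wt MG at 2 dpi with Wt uninjured MG, no gene is black between genotypes, and MDK ENSDARG00000020708 is black between *mych*-mut MG at 2 dpi and Wt uninjured MG.

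MDK ENSDARG00000036036 had 1348, 2039 and 1224 CPM in injured *mych*-mut MG, against 1056, 1429 and 1600 CPM in Wt MG at 2 dpi, and the log2 fold change was 0.17 (edgeR adjusted p 0.84, SE 0.32). MDK ENSDARG00000020708 had 163.8, 105.5 and 153.4 CPM in *mych*-mut MG, against 128.4, 157.1 and 199.7 CPM in Wt MG, and the log2 fold change was -0.20 (SE 0.23, adjusted p 0.712). Both midkine genes overlapped between genotypes. Their intervals ran from -0.53 to 0.88 and from -0.70 to 0.30, so a change of 1 or more on the log2 scale lay outside both.

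Of the Id genes, *id1* had 160.7, 266.3 and 165.1 CPM in *mych*-mut MG, against 231.4, 230.5 and 341.5 CPM in Wt MG at 2 dpi. A single mutant library reached into the Wt range. The log2 fold change was -0.44 (SE 0.28, interval -1.06 to 0.18, edgeR adjusted p 0.426). *id2a* was the gene with the narrowest interval of the 7 in this comparison: it had 63.85, 76.94 and 75.14 CPM in *mych*-mut MG, against 70.87, 67.51 and 86.42 CPM in Wt MG at 2 dpi, with a log2 fold change of -0.06 (SE 0.21, interval -0.51 to 0.40, adjusted p 0.927). *id3* had 7.46, 17.5 and 15.2 CPM in *mych*-mut MG, against 17.5, 12.7 and 13.2 CPM in Wt MG at 2 dpi, and its first mutant library was its lowest of all 9 libraries. Its log2 fold change was -0.11 (SE 0.32, interval -0.81 to 0.60, adjusted p 0.91).

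*id2b* was the only gene of the 7 whose libraries did not overlap between genotypes, against 23.8% of all genes tested. It had 52, 146 and 50 counts in *mych*-mut MG (0.87, 1.93 and 0.79 CPM), against 42, 0 and 25 counts in Wt MG at 2 dpi (0.66, 0 and 0.39 CPM). The log2 fold change of 1.78 was not called (edgeR adjusted p 0.359, SE 1.01), and its interval of -0.43 to 4.0 was the widest of the 7 genes. Without Wt 2 dpi replicate 2, the library at 0, it was 1.19 (adjusted p 0.473). *id4* had 4.68, 1.60 and 4.99 CPM in *mych*-mut MG, against 4.78, 0.66 and 2.86 CPM in Wt MG at 2 dpi, with a log2 fold change of 0.44 (SE 0.63, interval -0.93 to 1.81, adjusted p 0.781). Of the 15 inner retinal neuron marker IDs, 13 were higher in *mych*-mut MG, with a median log2 fold change of 0.80, and 0 were called. Neither was any retinal ganglion cell or pigment epithelium marker ID. All 6 retinal ganglion cell marker IDs had a positive log2 fold change (median 1.56), and their summed level was 273.9 to 378.2 CPM in *mych*-mut MG against 181 to 253.5 CPM in Wt MG at 2 dpi. All 6 pigment epithelium marker IDs had a negative one (median -1.64). Their sums were 77.8, 23.7 and 28.2 CPM in *mych*-mut MG against 351.7, 71.8 and 23.7 CPM in Wt MG at 2 dpi. The high Wt value thus came from 1 library, replicate 1. The part of ganglion and pigment epithelium cells in the values of the 7 genes was not tested. The log2 fold change of *id4* was -1.24 in the fit with the neuron covariate (SE 0.61, adjusted p 0.693). That fit called 0.0244% of all genes between genotypes, in place of 1.69%. Beyond it, the part of inner retinal neurons was not tested.

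A last comparison, of injured *mych*-mut MG with Wt uninjured MG, combined injury and genotype. It shares its libraries with both comparisons above. Here 1 of the 7 genes was called, where 25.8% of all genes tested were called (16.3% higher and 9.53% lower). MDK ENSDARG00000020708 had 163.8, 105.5 and 153.4 CPM in injured *mych*-mut MG, against 280.4, 208.9 and 211.4 CPM in Wt uninjured MG, and every mutant library was lower. It fell by 0.73 on the log2 scale (SE 0.23, interval -1.24 to -0.22, edgeR adjusted p 0.0371). The call was lost without any one of these 6 libraries (-0.85 to -0.53, adjusted p 0.0521 to 0.168) and with scaling by library size only (-0.58, adjusted p 0.12).

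*id2b* was lower in all *mych*-mut libraries than in all uninjured ones and had a log2 fold change of -2.76 that was not called (edgeR adjusted p 0.0697, SE 1.02). It was called when Wt 2 dpi replicate 2 was left out (adjusted p 0.00562). *id4* did not overlap either, with a log2 fold change of -1.37 (SE 0.64, adjusted p 0.139). Of all genes tested, 46.4% did not overlap in this comparison. *id1* overlapped, and its log2 fold change was 0.50 (SE 0.28, adjusted p 0.229). The values for MDK ENSDARG00000036036, *id2a* and *id3* were 0.42, 0.01 and -0.26, with adjusted p-values of 0.379, 0.984 and 0.618. In order of mean level, *id1* was highest in Wt MG at 2 dpi, then in *mych*-mut MG at 2 dpi, then in Wt uninjured MG, and neither neighbouring pair differed beyond its spread by the test. For *id2b* and *id4* the order was Wt uninjured MG, *mych*-mut MG at 2 dpi, Wt MG at 2 dpi, and again no neighbouring pair was called.

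Ratios of paralogs were taken within each library, since these do not depend on the scaling. With 2 counts added to each gene, the log2 ratio of *id2a* to *id2b* was 8.58 ± 2.47 in Wt MG at 2 dpi and 3.23 ± 0.69 in Wt uninjured MG (SD, n = 3 each, two-sided exact permutation p 0.1, adjusted p 0.2 over 6 tests). For 3 against 3 libraries 0.1 is the smallest p possible. The same ratio was 5.99 ± 0.63 in *mych*-mut MG at 2 dpi, lower than in every Wt library at 2 dpi (exact permutation p 0.1, adjusted p 0.2). Both differences leaned on Wt 2 dpi replicate 2, where *id2b* had 0 counts and the ratio of 11.38 was set by the counts added. Without it, the difference of Wt 2 dpi minus Wt uninjured MG was 3.95 in place of 5.35, and that of *mych*-mut minus Wt MG at 2 dpi was -1.19 in place of -2.59.

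The log2 ratio of *id1* to *id3* was 4.20 ± 0.49 in Wt MG at 2 dpi and 3.09 ± 0.51 in Wt uninjured MG (exact permutation p 0.1, adjusted p 0.2). It was 3.93 ± 0.49 in *mych*-mut MG at 2 dpi, which overlapped Wt MG at 2 dpi (exact permutation p 0.5, adjusted p 0.6). The log2 ratio of MDK ENSDARG00000036036 to MDK ENSDARG00000020708 was 3.08 ± 0.10 in Wt MG at 2 dpi and 2.22 ± 0.76 in Wt uninjured MG, and 1 uninjured library (3.05) lay among the injured ones (exact permutation p 0.3, adjusted p 0.45). In *mych*-mut MG at 2 dpi it was 3.44 ± 0.73 (exact permutation p 0.8 against Wt MG at 2 dpi, adjusted p 0.8). That mean was raised by replicate 2 at 4.27, and without this library the difference was -0.06 in place of 0.36.

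**Figure D4:**
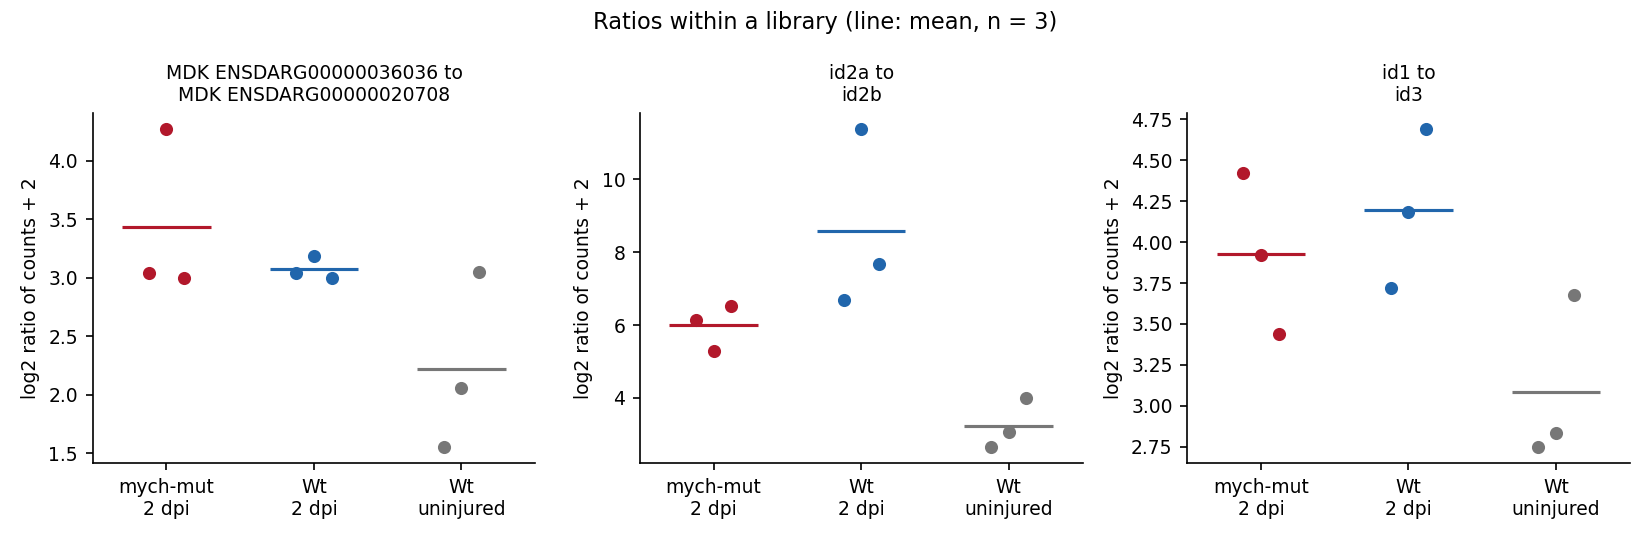
log2 ratio of counts within each library (vertical axes, 2 counts added to each gene) for the pair of midkine genes, the pair of *id2* paralogs, and *id1* to *id3*, in *mych*-mut MG at 2 dpi (red), Wt MG at 2 dpi (blue) and Wt uninjured MG (grey), with the mean as a line. The *id2a* to *id2b* ratio separates all 3 groups, and the widest spread is in Wt MG at 2 dpi, 6.69 to 11.4.

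The genes most alike to each of the 7 over the 9 libraries were found by the root mean square (RMS) difference of centred log2 CPM, among the 10321 genes with a symbol and a mean of at least 10 CPM, leaving out the gene itself. These are descriptions, and the libraries share depth and cell makeup. For *id2a* they were MYC (ENSDARG00000045695), DUSP4 and *setdb1a* at 0.0795 to 0.131, and for *id1* they were *lgals3b*, ERH and SPCS2 at 0.118 to 0.191. *id2a* itself ran only from 5.69 to 6.43 log2 CPM, so other genes that varied little come close to it. MDK ENSDARG00000036036 had *capn1a*, *sytl1* and SGK3 (0.143 to 0.178), MDK ENSDARG00000020708 had *tpm1*, SCYL3 and SCML2 (0.151 to 0.177), and *id3* had *si:zfos-943e10.1*, FZR1 and *telo2* (0.22 to 0.236). *id4* had *nhlh2*, a neuronal bHLH factor, at 0.286 and *abhd15a* at 0.326. *id2b* had no close match: *gprin3a*, GUCA1B, an activator of guanylate cyclase in photoreceptors, and *zgc:77752* were nearest at 0.938 to 1.04.

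The relatives, receptors and binding proteins of midkine were examined next. Of 17 IDs tested, 8 rose and 2 fell with injury in Wt MG, where 22.3% of all genes tested rose and 19.8% fell, and the median log2 fold change was 1.01. The receptor tyrosine kinases fell. ALK had 3.77, 2.66 and 0.92 CPM in Wt MG at 2 dpi, against 21.3, 16.8 and 14.4 CPM in Wt uninjured MG (log2 fold change -2.84, SE 0.53, edgeR adjusted p 0.00119). Its relative *ltk* fell by 1.77 (adjusted p 0.0223), a call lost without Wt 2 dpi replicate 1 or 3 or Wt uninjured replicate 3 (adjusted p 0.0543 to 0.168). Inner retinal neuron markers were lower as well, and their part in the falls of ALK and *ltk* was not tested. The receptor phosphatase PTPRZ1 has 2 IDs, of which ENSDARG00000020871 rose by 1.01 (adjusted p 0.00448) and ENSDARG00000051814 had -0.18 (adjusted p 0.784). PTN, the gene of pleiotrophin, averaged 32.2 ± 7.06 CPM (SD, n = 3) in injured Wt MG and 45.8 ± 31 CPM in Wt uninjured MG (log2 fold change -0.51, adjusted p 0.361).

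Integrins and nucleolin are described as midkine binding partners. Of the 8 integrin IDs tested, 4 rose with injury, 0 fell and 4 were not called. ITGA6 had 86.1, 78.1 and 61.6 CPM in Wt MG at 2 dpi, against 10.6, 7.45 and 13.7 CPM in Wt uninjured MG (log2 fold change 2.83, edgeR adjusted p 7.76e-06). Of 4 IDs with the symbol ITGB1, ENSDARG00000104484 rose by 2.62 (adjusted p 6.18e-06). ENSDARG00000053232 had 10, 124 and 36 counts in Wt MG at 2 dpi and 0 in every uninjured library, at least 13.1-fold higher against the floor of 3 counts per library (adjusted p 0.0458). Without Wt 2 dpi replicate 2 that bound was 6.18-fold, and the call was lost in 8 of the 9 fits that left out 1 library, all but the one without *mych*-mut replicate 2 (adjusted p 0.0554 to 0.135). Nucleolin (*ncl*), which acts in ribosome biogenesis, rose by 1.85 (adjusted p 1.96e-05). Between genotypes *ncl* was the single gene called in this list: it had 593.6, 757.1 and 682.4 CPM in *mych*-mut MG, against 1312, 1558 and 1494 CPM in Wt MG at 2 dpi. It fell by 1.1 on the log2 scale (SE 0.19, adjusted p 0.023). That call was lost without *mych*-mut replicate 1 or 3 or Wt 2 dpi replicate 2 or 3 (-1.08 to -1.01, adjusted p 0.0611 to 0.173), although no library overlapped. In these fits few genes were called at all: 0.0421, 0.132, 0.0376 and 0.249% of all genes tested, in place of 1.69%. ALK had 11.5, 3.87 and 9.67 CPM in *mych*-mut MG, each above every Wt library at 2 dpi, with a log2 fold change of 1.77 that was not called (adjusted p 0.0945). Most inner retinal neuron marker IDs were also higher in *mych*-mut MG, and their part in the ALK values was not tested.

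E proteins are the partners of Id proteins. Of 14 IDs tested among E proteins and neurogenic bHLH factors, 4 rose and 2 fell with injury, where 42.1% of all genes tested were called, and the median log2 fold change was -0.39. Among the E proteins, *tcf3a* rose by 1.3 (edgeR adjusted p 0.0106) and *tcf3b* by 0.65 (adjusted p 0.0216), TCF4 fell by 1.05 (adjusted p 0.0262), and TCF12 had 0.18 (adjusted p 0.43). The call of *tcf3b* was lost without Wt 2 dpi replicate 1 or 2 or Wt uninjured replicate 1 (adjusted p 0.0596 to 0.0836), and that of TCF4 without Wt 2 dpi replicate 2 or 3 or Wt uninjured replicate 2 or 3 (adjusted p 0.0695 to 0.0891). *ascl1a*, the bHLH factor that MG need for reprogramming, had 386.3, 608.2 and 492 CPM in Wt MG at 2 dpi, against 3.73, 4.50 and 5.49 CPM in Wt uninjured MG (log2 fold change 6.76, adjusted p 3.52e-07). OLIG2 rose by 4.64 (adjusted p 2.79e-05), and NEUROD4 fell by 1.48 (adjusted p 0.00117). Between genotypes 0 of the 14 were called by edgeR and 1 by DESeq2, where these called 1.69% and 7.6% of all genes. *ascl1a* had a log2 fold change of -0.92 between genotypes (edgeR adjusted p 0.122).

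The BMP and Smad genes act upstream of Id genes. Of 33 matched IDs 30 were tested, of which 5 rose and 3 fell with injury, where 42.1% of all genes tested were called, with a median log2 fold change of 0.05. SMAD5, a transducer of BMP signals, had 58.3, 69.7 and 62.5 CPM in Wt MG at 2 dpi, against 13.6, 11.3 and 23.9 CPM in Wt uninjured MG (log2 fold change 1.97, edgeR adjusted p 0.000173). The ligand BMP2 has 2 IDs, and ENSDARG00000013409 rose by 2.10 (adjusted p 0.0289). The BMP antagonist gene *nog2* had 17, 37 and 8 counts in Wt MG at 2 dpi and 0 in all uninjured libraries, at least 4.93-fold higher against the floor of 3 counts per library (adjusted p 0.0131). The receptors *bmpr1bb*, BMPR2 (ENSDARG00000011941) and *bmpr1ba* fell by 1.19, 1.04 and 0.74 (adjusted p 0.0147, 0.0187 and 0.0459). The count of 8 called was 5 or fewer without *mych*-mut replicate 1, any 1 Wt 2 dpi library, or Wt uninjured replicate 1 or 2 (3 at the least). Of the genes named here, SMAD5 and *nog2* kept their calls in all 9 of these fits, whereas BMP2 (ENSDARG00000013409) lost its call in 5, *bmpr1ba* in 6, BMPR2 in 2 and *bmpr1bb* in 1. Between genotypes 0 of 30 were called by edgeR and 0 by DESeq2, where these called 1.69% and 7.6% of all genes.

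Regulators of the G1 phase, where Id2 meets the retinoblastoma proteins, rose for the most part. Of 21 IDs tested 13 rose and 2 fell with injury, where 22.3% of all genes tested rose and 19.8% fell, and the median log2 fold change was 2.54. RBL2, the retinoblastoma relative named with Id2a above, had 29.1, 21.7 and 23.0 CPM in Wt MG at 2 dpi, against 67.3, 66.7 and 59.7 CPM in Wt uninjured MG. It fell by 1.39 on the log2 scale (edgeR adjusted p 2e-04, SE 0.20). The other retinoblastoma genes of the list rose, RB1 by 3.96 (adjusted p 5.18e-07) and RBL1 by 1.06 (adjusted p 0.0162). The call of RBL1 was lost without Wt 2 dpi replicate 1 or Wt uninjured replicate 1 (adjusted p 0.0577 to 0.0823). The other fall was CDKN1B (ENSDARG00000029018), a Cdk inhibitor gene, by 1.94 (adjusted p 5.22e-05). The other CDKN1B ID, ENSDARG00000054271, had -0.13 (adjusted p 0.581), and the Cdk inhibitor gene *cdkn1a* rose by 3.09 (adjusted p 0.000846). The largest rises were those of E2F1, CCNE1 and *e2f2*. E2F1 had 117, 561 and 147 counts in Wt MG at 2 dpi and 0 in every uninjured library, at least 64.5-fold higher against the floor of 3 counts per library, or 35.5-fold without Wt 2 dpi replicate 2. CCNE1, the gene of a cyclin of G1 and S phase, had 1309, 2194 and 1326 counts in Wt MG at 2 dpi, against 10, 14 and 0 counts in Wt uninjured MG. *e2f2* had 721, 886 and 318 counts in Wt MG at 2 dpi, against 13, 0 and 0 counts in Wt uninjured MG.

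Between genotypes 1 of the 21 was called, by edgeR. *e2f3* had 22.8, 23.8 and 22.6 CPM in *mych*-mut MG, against 40.4, 43.9 and 49.3 CPM in Wt MG at 2 dpi, and fell by 0.95 on the log2 scale (edgeR adjusted p 0.0387, SE 0.19). No library overlapped, but the call was lost in 7 of the 9 fits that left out 1 library, all but those without *mych*-mut replicate 2 or Wt 2 dpi replicate 1 (-0.96 to -0.87, adjusted p 0.0508 to 0.205). In those 7 fits 0.0376 to 1.07% of all genes tested were called, in place of 1.69%. RBL2 had 34.9, 28.9 and 40.6 CPM in *mych*-mut MG, against 29.1, 21.7 and 23.0 CPM in Wt MG at 2 dpi, with a log2 fold change of 0.50 that was not called (adjusted p 0.194).

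**Figure D5:**
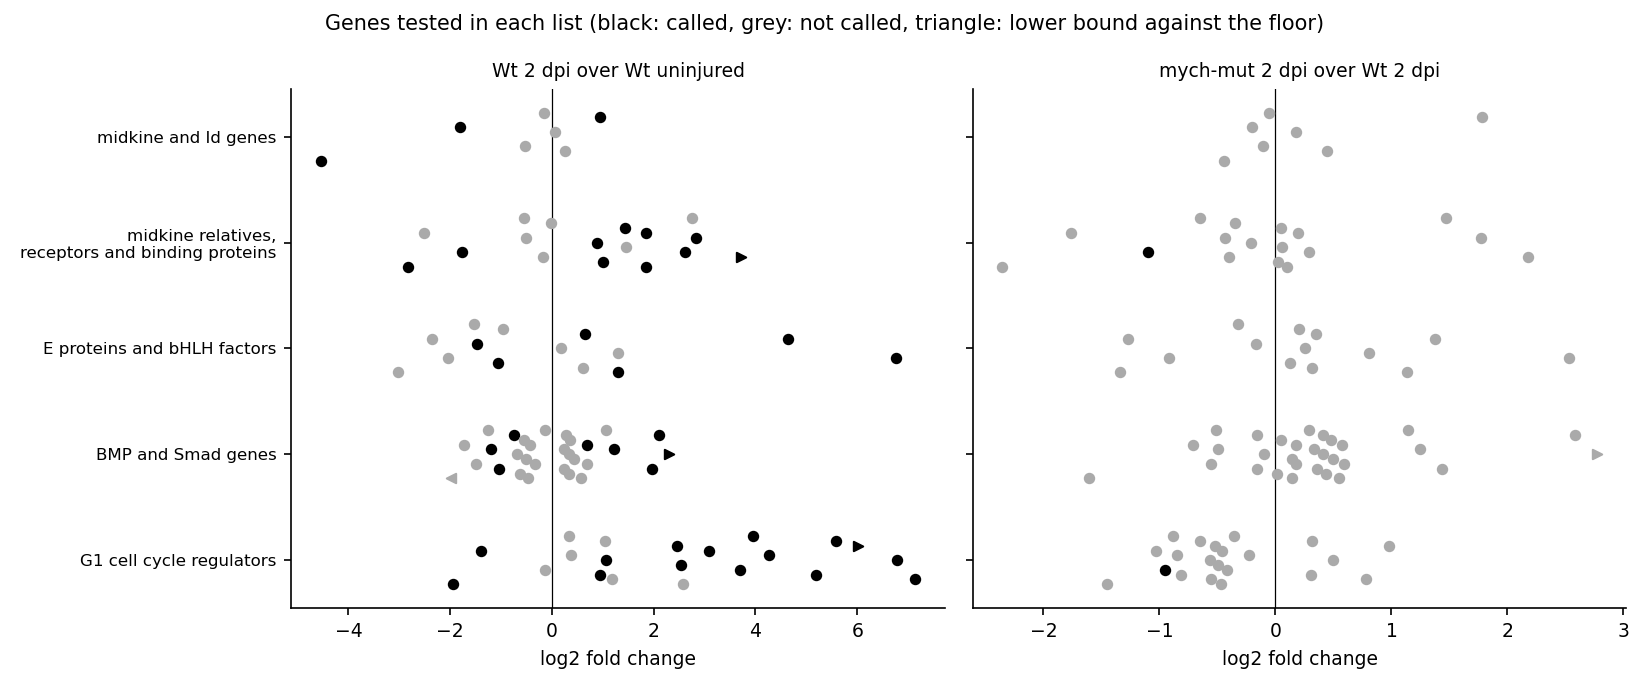
log2 fold change (horizontal axis) of each gene tested in the midkine and Id genes and in the 4 lists around them, for Wt MG at 2 dpi over Wt uninjured MG (left) and *mych*-mut MG at 2 dpi over Wt MG at 2 dpi (right), black where called, grey where not, and as a triangle where 1 group is at the floor and the value is a lower bound. The G1 regulators stand out on the left with 13 rises, and on the right only *ncl* and *e2f3* are black.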

How the data were processed

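The authors deposited a table of raw read counts per gene ID, 1 column for each of the 9 libraries. According to the methods, libraries of polyA RNA were run on an Illumina NovaSeq and the reads were aligned to the zebrafish genome. The submitters' processing notes name GRCz11 and GRCh38, cutadapt 2.3, FastQC 0.11.8, STAR 2.7.8a, RSEM 1.3.3 and DESeq2, with no role. If RSEM made the counts, they are rounded estimates. Strand use and annotation release are not given in the sources used here. Reads that fit paralogs, overlapping genes or antisense genes may therefore be split between IDs. Symbols came from a names table that matched 93.4% of the IDs and in which 3304 IDs shared a symbol. The exon lengths needed to compare levels between genes were not used here.

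Genes kept by filterByExpr by group (20484) were fitted in 1 model of all 9 libraries with edgeR 4.0.16 in R 4.3.3 (TMM scaling, robust quasi-likelihood F test, Benjamini-Hochberg adjustment over all genes tested). The thresholds are those of the study, whose further threshold on FPKM was not applied. Standard errors were derived from the F statistic, and intervals are 95% intervals. log2 CPM used a prior count of 2. A group counted as at the floor for a gene where none of its libraries held more than 3 counts. Floors cover counting error only. Same-numbered libraries were checked for pairing: over 9 pairs, the correlation of their deviations ran from -0.0754 to 0.0899. No shift shared by number was seen, and the libraries were not treated as paired. Whether same-numbered libraries were handled together is not stated in the labels.

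The 7 genes, the 4 lists around them, the marker lists and the alternatives were chosen with earlier results of these data known. Named were the 7 genes, the 3 genes most alike to each, a set of genes tied to them by known biology (PTN, ALK, PTPRZ1, E proteins, RBL2, *ascl1a*), and of each list the 3 largest called rises and falls with injury and every gene called between genotypes. Some single genes named by this rule are not reported here. Alternatives were other scalings, no filter on low counts, DESeq2 1.42.0, a non-robust dispersion, only the 6 libraries compared, a replicate block, other fold thresholds, another prior count, each library left out, and a neuron score as covariate. The tests were also run on simulated data. These had 1 dispersion for all genes, lower than the common dispersion of the real libraries, so that run does not show how often the tests err here. Figures were drawn in Python 3.11.15 with matplotlib 3.10.9.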

Additional observations from a re-analysis of the deposited data

How the results depend on the processing

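With each library left out in turn, the number of the 7 genes called ranged from 1 to 3 with injury (the lowest without Wt uninjured replicate 1), stayed at 0 between genotypes, and ranged from 0 to 2 in injured *mych*-mut MG against Wt uninjured MG. In that last comparison the 1 call became 0 with library size only, 0 above an absolute log2 fold change of 1, 2 with DESeq2, 2 with only the 6 libraries compared and 2 with the replicate block. The share of all genes called in it was 25.8% in the main fit and 17.8 to 25% with a library left out. It was 24.3% with library size only, 27.7% with DESeq2, 27.7% with only the 6 libraries and 24.2% with the replicate block. With the neuron score as covariate the counts were 0 with injury, where 1.94% of all genes were called, and 0 in that comparison, where 4.88% were. There, scaling by library size only gave a median of 0.147 over all genes, against -0.00285, and 76.4% of calls were higher, against 63.1%. *id2b* kept its call with injury in 17 of 18 alternatives, all but the neuron score. In injured *mych*-mut MG against Wt uninjured MG it was called with DESeq2 (-2.77, adjusted p 0.017) and with only the 6 libraries (-2.75, adjusted p 0.00705). *id4* was called there with the replicate block (-1.55, adjusted p 0.0378).

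Signs turned only for values that were not called, except for *id4* with injury. With the neuron score as covariate, MDK ENSDARG00000036036 had -0.68 with injury and -0.13 in injured *mych*-mut MG against Wt uninjured MG, and *id4* had 2.22 with injury, -1.24 between genotypes and 0.97 in that last comparison. *id2a*, near 0 throughout, had -0.0054 with injury under upper quartile scaling, 0.029 between genotypes with library size only, and in the last comparison -0.0084 with DESeq2 size factors, -0.0086 with DESeq2 and -0.032 under upper quartile scaling. With each library left out, *id2a* ranged from -0.12 to 0.21 with injury, -0.13 to 0.059 between genotypes and -0.16 to 0.16 in the last comparison. *id3* ranged from -0.31 to 0.029 with injury, from -0.35 to 0.18 between genotypes and from -0.50 to 0.029 in the last comparison. Between genotypes *id4* ranged from -0.024 to 1.1, MDK ENSDARG00000036036 from -0.080 to 0.34, and the log2 ratio of both midkine genes from -0.057 to 0.58.

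Of the midkine relatives and receptors, 2 were called between genotypes with DESeq2 and 0 with the replicate block, and 0 to 2 with a library left out. Of the E proteins and bHLH factors, 1 was called between genotypes with DESeq2, and 0 to 1 with a library left out. Of the BMP and Smad genes, 5 were called with injury from only the 6 libraries compared, and with a library left out 3 to 9 with injury, 0 to 1 between genotypes and 4 to 9 in the last comparison. Of the G1 regulators, between genotypes 0 were called with library size only, 3 with DESeq2, 0 from only the 6 libraries, 0 with the replicate block and 0 to 1 with a library left out. Over all genes, 1.69% were called between genotypes in the main fit and 7.6% with DESeq2. That share was 1.04% with library size only, 1.13% from only the 6 libraries, 0.542% with the replicate block and 0.0376 to 4.81% with a library left out. With injury it was 43.7% from only the 6 libraries and 33.1 to 41.3% with a library left out. No pairing by replicate number was seen in these libraries. The causes of these shifts were not tested. The lowest counts per library were those of *id2b* (0 to 146 at 2 dpi) and *id4* (52 in Wt 2 dpi replicate 2).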
